A study of Mus musculus with 2 samples.

Results

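The interferon-inducible GTPases described here are 10 genes of 2 related families, chosen by name and not by their values: the guanylate-binding proteins Gbp2, Gbp3, Gbp4, Gbp5, Gbp6 and Gbp7, and the immunity-related GTPases Iigp1, Igtp, Irgm1 and Irgm2. They are 10 of 32287 features counted, and all 10 were found in both libraries. RNA was counted in single droplets (barcodes) from the livers of wild-type C57BL/6J mice. In the shBicd2 group the mice, 4 weeks old, had been given an adeno-associated virus (AAV) that carries a short hairpin against Bicd2, an adaptor of the dynein motor. In the scramble group, of the same age, the virus carried a scrambled sequence. Mice of both groups received concanavalin A, a plant lectin that activates T cells and brings on acute hepatitis, in a vein at 15 mg/kg 3 weeks after infection, and livers were collected 6 hours after the injection. No group without concanavalin A is among these samples, so the values compare 2 inflamed livers. Each group is 1 library, and the labels do not say how many mice it holds. No difference between the groups therefore has a replicate check, no test between them was possible, and every interval given is a 95% interval that covers counting error only.

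These GTPases are a defence system that cells switch on when interferon binds its receptor. Interferon gamma, made by activated T and natural killer cells, signals through the kinases Jak1 and Jak2 and acts on genes through a DNA element called GAS. Irf1, a transcription factor that interferon gamma induces, binds a second element, the ISRE, through which type I interferon also acts. The guanylate-binding proteins are large GTPases that assemble on bacteria and on the vacuoles of parasites. Among the smaller immunity-related GTPases, Iigp1 is an effector that coats and disrupts such vacuoles, while Igtp, Irgm1 and Irgm2 sit on the membranes of the host cell and keep effectors inactive there. Hepatocytes respond to interferon gamma and make these proteins too, as do macrophages, endothelial cells and fibroblasts.

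The members sit in clusters of related genes, all annotated as protein coding in GRCm38, the assembly that mm10 names. Chromosome 3 holds Gbp5 (chr3:142493978-142522344), Gbp7 (chr3:142530342-142550149), Gbp3 (chr3:142560026-142573209) and Gbp2 (chr3:142620602-142638008) on the plus strand, within 144 kb. Chromosome 5 holds Gbp4 (chr5:105115767-105139586) and Gbp6 (chr5:105270702-105293698) on the minus strand. Irgm1 (chr11:48861968-48871683, minus strand) lies apart from Igtp (chr11:58199556-58207591) and Irgm2 (chr11:58199618-58222782). The annotations of Igtp and Irgm2 overlap, as do those of Gbp4 with Gbp8 and Gbp9, and the families hold close copies. The labels do not say how reads shared between them were assigned, so the split between such neighbours is uncertain.

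The DNA before the starts of these genes was read because GAS and ISRE are the elements through which interferon is known to act on this family. RefSeq promoter windows of GRCm38.p6, 250 bases before to 50 bases after a gene's start, were at hand for 7 members; RefSeq's starts can lie inside the GENCODE spans given above. The ISRE core was searched as 2 copies of GAAA with any 2 bases between them and the GAS core as TTCNNNGAA, on both strands. The letters of one do not overlap the other in any match printed here. All 7 members had an ISRE match in a window, while 3.43% of 32817 promoter windows had one. A GAS match was found for Gbp5, Gbp7, Igtp and Irgm2 and for 8.29% of all windows. A match is a run of letters and not a measured binding site. The stretches of 40 bases below, 1 for each of the 7 genes, show the ISRE match in capitals, as it reads on the gene's own strand.
Gbp2: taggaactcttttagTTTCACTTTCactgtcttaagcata
Gbp3: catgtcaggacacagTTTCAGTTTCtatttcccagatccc
Gbp5: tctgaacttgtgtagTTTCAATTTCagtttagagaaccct
Gbp7: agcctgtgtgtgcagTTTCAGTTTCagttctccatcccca
Igtp: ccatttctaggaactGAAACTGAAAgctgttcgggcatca
Irgm1: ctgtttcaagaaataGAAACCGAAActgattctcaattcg
Irgm2: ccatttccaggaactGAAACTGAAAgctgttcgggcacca
These matches begin 59 bases before the start in Gbp2, 45 in Gbp3, 165 in Gbp5, 53 in Gbp7, 34 in Igtp, 24 in Irgm1 and 64 in Irgm2. Gbp3 and Irgm1 have a further ISRE match that overlaps the one shown.

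The whole windows of Gbp2 and Gbp7 are shown because, of the members with a window, these had the highest and the lowest ratio between the libraries (given below). Capitals mark GAS and ISRE matches. The Gbp7 window (chr3:142530086-142530385, plus strand) has 2 GAS matches, 106 and 87 bases before the start, ahead of its ISRE match, and the Gbp2 window (chr3:142620413-142620712, plus strand) has an ISRE match alone.
Gbp7: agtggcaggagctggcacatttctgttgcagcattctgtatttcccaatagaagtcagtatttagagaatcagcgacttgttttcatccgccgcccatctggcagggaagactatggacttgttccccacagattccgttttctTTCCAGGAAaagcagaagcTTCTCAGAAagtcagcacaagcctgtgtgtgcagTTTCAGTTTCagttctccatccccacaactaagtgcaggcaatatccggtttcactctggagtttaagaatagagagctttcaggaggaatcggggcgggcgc
Gbp2: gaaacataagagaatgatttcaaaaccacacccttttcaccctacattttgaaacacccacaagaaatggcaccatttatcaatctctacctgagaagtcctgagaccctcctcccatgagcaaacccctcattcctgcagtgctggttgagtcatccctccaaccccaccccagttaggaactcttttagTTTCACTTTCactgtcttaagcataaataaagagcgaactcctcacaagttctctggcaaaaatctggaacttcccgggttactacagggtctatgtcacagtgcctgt

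The library labelled shBicd2 had 2940 kept barcodes and the library labelled scramble 2728, with medians of 1497 and 1501.5 UMIs (unique molecular identifiers, which count captured RNA molecules). The hairpin's target did not stand lower: Bicd2 had 107 UMIs in the first of these libraries and 80 in the second, a ratio of CPM of 1.21 (0.895 to 1.63). Every direction below thus compares 2 labelled libraries and not a measured loss of Bicd2. The libraries also differed in EGFP (27.4% and 6.12% of barcodes), in median mitochondrial share (0.359% and 0.187%) and in Neat1 (45069 and 65836 CPM, UMI counts scaled to 1 fixed total of UMIs per class). Hepatocyte barcodes are the 2406 and 2223 with at least 1% of UMIs from 15 hepatocyte markers and none from Ptprc (leukocytes), Ptprb (endothelium) or Dcn (stellate cells and fibroblasts), and all 15 markers were found in them in both libraries. Barcodes with a UMI of 1 of those 3 genes numbered 110 and 152 for Ptprc, 59 and 33 for Dcn, and 3 and 2 for Ptprb. A further 358 and 318 barcodes had no such UMI and under 1% hepatocyte marker UMIs, and 4 barcodes of the library labelled shBicd2 had UMIs of more than 1 gate gene and were left out of the classes. The libraries shared 3 barcode names.

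Hepatocyte RNA was found in every class, which bears on each level below. Ptprc barcodes held hepatocyte marker UMIs at 0.734 times their share in hepatocyte barcodes in the library labelled shBicd2, and at 0.747 times in the library labelled scramble. Alb, the albumin gene, had a UMI in 66.4% and 48.0% of Ptprc barcodes, against 80.1% and 65.0% of hepatocyte barcodes. No class here is known to lack the GTPases. An estimate of free RNA, the profile of the whole library taken at the hepatocyte marker level of the Ptprc barcodes, was subtracted from the hepatocyte barcodes in its place. That profile comes mostly from hepatocyte barcodes themselves. It was subtracted at 0.824 times their UMIs in the library labelled shBicd2 and 0.822 times in the library labelled scramble. What is left is how far hepatocyte barcodes exceed the library's own profile, and not a measured hepatocyte level. The subtraction left 0 UMIs of Gbp4 and Gbp5 in both libraries, and 0 and 28.2 UMIs of Gbp6. Gbp7 kept 128 and 220.4 UMIs and Iigp1 2718 and 2024 UMIs in the libraries labelled shBicd2 and scramble, ratios of 0.542 and 1.25 once scaled to the UMIs left.

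In hepatocyte barcodes Gbp7 and Gbp6 stood well below their scramble level in the library labelled shBicd2, Gbp2 and Irgm1 stood somewhat higher, and the dominant member, Iigp1, differed little. Gbp7 was at 406 CPM (388 to 426) in the library labelled shBicd2 and 780 CPM (753 to 808) in the library labelled scramble, a ratio of 0.521 (0.491 to 0.552). Gbp6 was at 325 CPM (309 to 343) and 597 CPM (573 to 621), a ratio of 0.545 (0.510 to 0.583). Both proteins belong to the set that gathers on parasite vacuoles. Their shares of barcodes differed too: a Gbp7 UMI was found in 35.6% (33.7% to 37.6%) of barcodes of the library labelled shBicd2 and 51.6% (49.5% to 53.7%) of the library labelled scramble, and a Gbp6 UMI in 25.4% and 43.7%. With all barcodes reduced at random to 1000 UMIs, and 666 and 548 shallower ones dropped, the shares were 27.5% and 42.0% for Gbp7 and 19.5% and 33.2% for Gbp6. Gbp5, which promotes assembly of the NLRP3 inflammasome, was at 127 CPM and 189 CPM, a ratio of 0.672 (0.601 to 0.750) that lies just inside the 1.5-fold threshold. Markers of most other cell types in these barcodes were higher in the library labelled shBicd2. Neutrophil markers were at 265 and 52.9 CPM, myeloid at 92.5 and 50.4 CPM, endothelial at 63.9 and 32.5 CPM and erythroid at 403 and 269.7 CPM. Cholangiocyte markers went the other way, at 48.4 and 59.7 CPM. In the 846 and 1231 hepatocyte barcodes with no marker UMI of any other cell type, the ratio was 0.512 (0.460 to 0.568) for Gbp7 and 0.579 (0.514 to 0.651) for Gbp6.

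Of the other guanylate-binding proteins, Gbp2 stood above its scramble level, and the intervals of Gbp3 and Gbp4 included 1. Gbp2, which is anchored to membranes by a lipid tail and recruited to vacuoles, was at 173 CPM (161 to 186) in the library labelled shBicd2 and 129 CPM (118 to 140) in the library labelled scramble, a ratio of 1.35 (1.20 to 1.51). Gbp4 was at 223 CPM and 213 CPM, a ratio of 1.05 (0.953 to 1.15), and Gbp3 at 70.6 CPM and 71.2 CPM, a ratio of 0.992 (0.841 to 1.17). Gbp4 was at 0.884 (0.789 to 0.990) in barcodes with no EGFP UMI. In barcodes with no mitochondrial UMI it was at 0.877 (0.321 to 2.07), from 7 and 26 UMIs. Members of 1 cluster thus had unlike ratios: Gbp7 and Gbp3, next to each other on chromosome 3, had 0.521 and 0.992. The largest number of UMIs in a single barcode was 40 and 27 for Gbp4 and 20 and 7 for Gbp2.

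Among the immunity-related GTPases, Iigp1, on the plus strand of chromosome 18, outnumbered the other 9 members together. Iigp1 had 17744 UMIs (4093 CPM) in the library labelled shBicd2 and 18010 UMIs (4497 CPM) in that labelled scramble, a ratio of 0.910 (0.891 to 0.929). It ranked 20th and 16th of all genes by UMIs, and 90.7% and 92.0% of hepatocyte barcodes had at least 1. Since 3-prime counting takes molecules and not fragments, these counts are not divided by gene length. Irgm1, a regulator on Golgi and lysosomal membranes, was at 427 CPM (408 to 447) and 335 CPM (317 to 354), a ratio of 1.27 (1.19 to 1.37). Igtp, a regulator found on the endoplasmic reticulum and on lipid droplets, was at 275 CPM and 320 CPM, a ratio of 0.858 (0.792 to 0.929). Irgm2 was at 103 CPM and 124 CPM, a ratio of 0.829 (0.728 to 0.944).

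**Figure D1:**
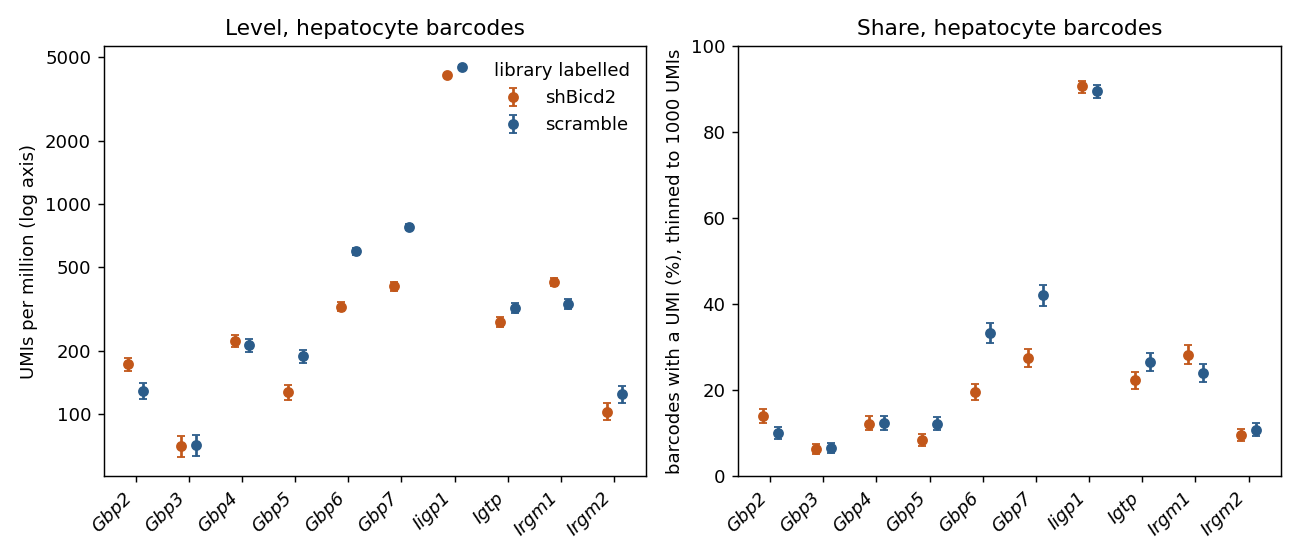
Left, CPM (log axis) of each member in hepatocyte barcodes; right, percent of hepatocyte barcodes thinned to 1000 UMIs that hold a UMI. Points are the libraries labelled shBicd2 (left of each pair) and scramble, with exact Poisson or Clopper-Pearson 95% intervals for counting error. Gbp6 and Gbp7 lie apart between the libraries, at 325 and 406 CPM in shBicd2 and 597 and 780 CPM in scramble, and Iigp1 lies above all others at 4093 and 4497 CPM.

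As a group the members stood slightly lower where the typical gene stood slightly higher. Their median log2 ratio was -0.18, while that of the 9314 genes with at least 50 UMIs was 0.14. Of the 10 members, 2 (Gbp6 and Gbp7) were lower by 1.5-fold or more, and 9.53% of all genes were. None was higher by 1.5-fold or more, and 22.5% of all genes were. Summed over the 10 genes, the level was 6224 CPM in the library labelled shBicd2 and 7256 CPM in the library labelled scramble, a ratio of 0.858 (0.844 to 0.872), or 0.772 (0.751 to 0.794) without Iigp1. With free RNA subtracted as above, the summed ratio turned to 1.21. That value covers only the UMIs left and is not a measured hepatocyte level. Scaling by TMM factors, which shift every log2 ratio by -0.19, puts Gbp4 at 0.916 (0.835 to 1.01), Gbp2 at 1.18 (1.05 to 1.32) and Irgm1 at 1.12 (1.04 to 1.20). Members without a GAS match in their window (Gbp2, Gbp3, Irgm1) had ratios of 0.992 to 1.35, and those with one (Gbp5, Gbp7, Igtp, Irgm2) had ratios of 0.521 to 0.858, a description over 7 genes that draws nothing about binding.

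Genes around the members in the pathway went several ways. Ifng itself had 12 and 6 UMIs over all kept barcodes of the libraries labelled shBicd2 and scramble, too few to compare. Of 12 interferon gamma signalling genes with at least 50 UMIs, 6 were higher and 6 lower, with a median log2 ratio of -0.01. Irf1, the activator that binds ISREs, was at 926 CPM and 647 CPM, a ratio of 1.43 (1.36 to 1.51). Socs1 and Socs3, inhibitors of cytokine signalling, had ratios of 0.862 (0.818 to 0.909) and 0.734 (0.677 to 0.795). By 1.5-fold or more, 2 of the 12 were higher and 1 was lower, beside 22.5% and 9.53% of all genes. Of the 2 higher ones, Ifngr1, a chain of the interferon gamma receptor, was at 37.8 CPM and 15.98 CPM. Of 16 interferon gamma targets other than GTPases, 13 were higher, 4 of them by 1.5-fold or more beside 22.5% of all genes, with a median of 0.23 beside 0.14 over all genes, among them the MHC gene H2-K1 at 1.502 (1.46 to 1.54). All 14 type I interferon targets with at least 50 UMIs were lower, 12 of them by 1.5-fold or more beside 9.53% of all genes, with a median of -1.03.

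Relatives outside the list of 10 also went both ways. Of 15 further GBP and IRG genes in the files, 11 had at least 50 UMIs, 4 of them higher and 7 lower, with a median log2 ratio of -0.23. By 1.5-fold or more, 1 of the 11 was higher and 1 lower, beside 22.5% and 9.53% of all genes. Tgtp1, an effector of the Iigp1 type, was at 281 CPM in the library labelled shBicd2 and 158 CPM in the library labelled scramble, a ratio of 1.78 (1.61 to 1.96); it has a close copy, Tgtp2, so its reads are uncertain. F830016B08Rik, which the annotation places near Iigp1, was at 1167 CPM and 1869 CPM, a ratio of 0.624 (0.602 to 0.647). Ifi47, another effector, had a ratio of 0.774 (0.723 to 0.830) and Gbp9 1.08 (0.996 to 1.17). Of 15 partner genes from autophagy and inflammasome pathways, 7 were higher and 8 lower, with a median of -0.01. Only 2 of the 15 partners were higher by 1.5-fold or more and none was lower by it, beside 22.5% and 9.53% of all genes. These were Sqstm1, an autophagy receptor that brings GBPs to vacuoles, at 1.69 (1.56 to 1.83), and Gabarapl1, an autophagy conjugate protein, at 2.15 (1.90 to 2.44). Ifngr1, Tgtp1 and Gabarapl1 were named after their values were seen, because they passed the fold.

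The level of the members in hepatocyte barcodes differed with what else a barcode held. In barcodes with an Irf1 UMI (1149 for shBicd2, 901 for scramble), all 6 guanylate-binding proteins and Irgm1 were at least 1.5-fold above barcodes with none, in both libraries. Such 1.5-fold higher levels were seen for 7 of 10 members in each library, and for 7.75% and 5.69% of all genes. Gbp6 led in the library labelled shBicd2, at 3.16 times (2.76 to 3.62), and Gbp4 in the library labelled scramble, at 2.68 times (2.31 to 3.13). Iigp1 was at 1.24 and 1.49 times, Igtp at 1.24 and 1.34 times, and Irgm2 at 0.891 (0.737 to 1.08) and 1.24 (1.03 to 1.48) times. Barcodes with an Irf1 UMI were deeper, with medians of 1837 and 1939 UMIs against 1245 and 1306.5 without, and held fewer hepatocyte marker UMIs, at 21447 and 18132 CPM against 28247 and 20481 CPM. The part of these differences in the result was not tested.

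Barcodes with a UMI of Ripk2, a kinase of inflammatory signalling, gave the widest spread between members among the splits by a UMI of named genes. The split was added after the data were seen. Gbp5 was at 331 CPM in such barcodes and 74.3 CPM in those without in the library labelled shBicd2, which is 4.46 times (3.76 to 5.29), and at 395 CPM and 131 CPM in the library labelled scramble, which is 3.02 times (2.61 to 3.50). Gbp3 was at 3.22 and 3.03 times and Gbp4 at 3.08 and 2.83 times. Irgm2 was at 0.780 (0.60 to 1.0) and 1.28 (1.04 to 1.56) times, and Igtp at 1.12 and 1.08 times. Of the 10 members 7 in each library were at least 1.5-fold higher with Ripk2, and 8.94% and 7% of all genes were. Barcodes with Ripk2 were deeper too, with medians of 2155 and 2046 UMIs against 1427 and 1455 without, as were those with EGFP (1906 and 2137 against 1381.5 and 1509) and with the type I targets described next (2089 and 1895.5 against 1376 and 1420). They also held fewer hepatocyte marker UMIs, at 19941.5 and 17108 CPM with Ripk2 against 25498 and 19965 CPM without. The values were 20002 and 16125.5 against 26280 and 19576.5 CPM for EGFP, and 21512 and 18793 against 25450 and 19684 CPM for the type I targets. The part of these differences in the result was not tested.

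Barcodes with a UMI of Ifit1, Ifit2, Ifit3 or Rsad2, targets of type I interferon, numbered 517 for shBicd2 and 732 for scramble. There 7 and 6 of 10 members were at least 1.5-fold higher than in barcodes without, and 7.23% and 6.13% of all genes were. Gbp6 was at 3.74 (3.36 to 4.17) and 2.07 (1.91 to 2.25) times, Gbp4 at 2.92 and 2.50 times and Irgm1 at 2.25 and 2.15 times, while Igtp was at 1.12 and 1.38 times. Barcodes with such a UMI held more erythroid marker UMIs than those without, 607 against 324 CPM in the library labelled shBicd2 and 357 against 213 CPM in that labelled scramble, and more neutrophil ones, 338 against 237 CPM and 58.7 against 49.2 CPM; their part was not tested. The difference between the libraries did not lie in these barcodes alone: in those without such a UMI, Gbp7 had a ratio between the libraries of 0.568 (0.524 to 0.616) and Gbp6 of 0.440 (0.397 to 0.488). In barcodes with such a UMI, Gbp7 had 0.556 (0.509 to 0.607) and Gbp6 0.797 (0.730 to 0.869).

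**Figure D2:**
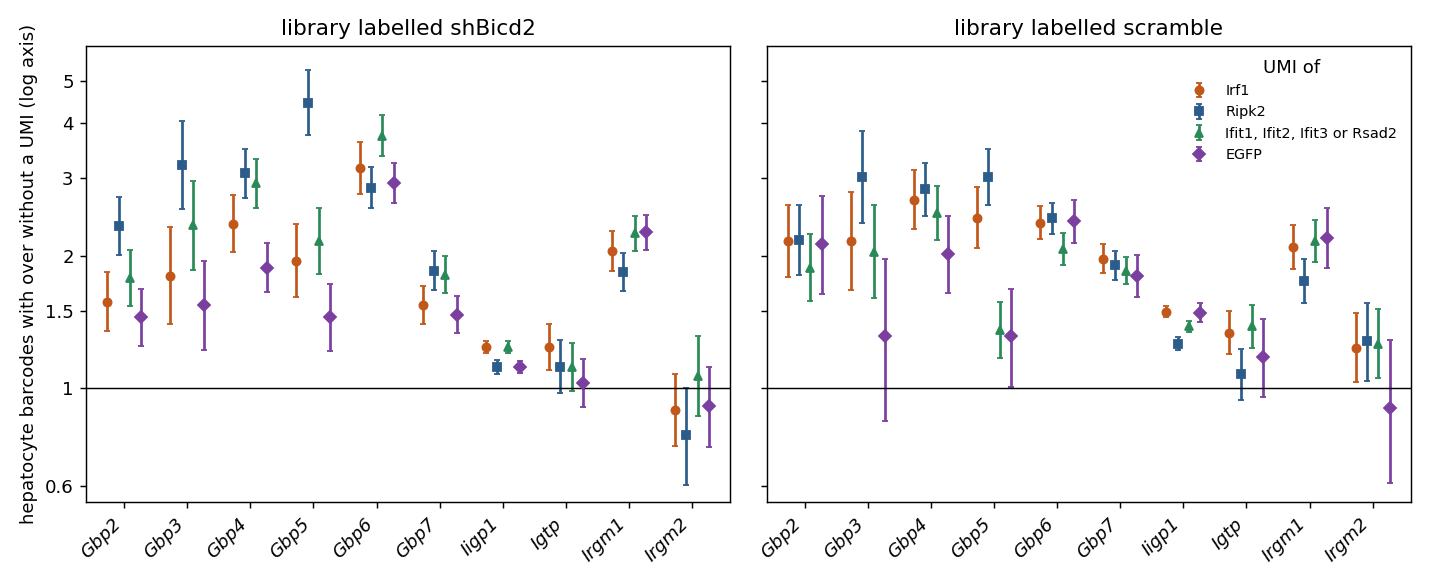
Ratio of each member's level in hepatocyte barcodes with a UMI of the named gene over those without (log axis), in the libraries labelled shBicd2 (left) and scramble (right), with exact 95% intervals for counting error. The guanylate-binding proteins and Irgm1 lie above 1 under all 4 splits, up to 4.46 for Gbp5 with Ripk2 in shBicd2, while Igtp, Iigp1 and Irgm2 lie between 0.780 and 1.49.

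EGFP, whose source the labels do not give, divided the members in like manner. Hepatocyte barcodes with an EGFP UMI numbered 584 for shBicd2 and 113 for scramble. Irgm1 was at 2.26 (2.06 to 2.48) and 2.20 (1.88 to 2.56) times its level in barcodes without EGFP, and Gbp6 at 2.93 and 2.40 times. Of the 10 members, 4 and 5 were at least 1.5-fold higher with EGFP, and 7.83% and 8.86% of all genes were. The higher Irgm1 of the library labelled shBicd2 was not seen inside either subset: the ratio was 1.03 (0.878 to 1.20) with EGFP and 0.997 (0.913 to 1.09) without. For Gbp2 the ratio was 0.871 (0.671 to 1.14) with EGFP and 1.28 (1.12 to 1.46) without. Gbp7 and Gbp6 were lower in both subsets, at 0.393 (0.346 to 0.446) and 0.460 (0.406 to 0.522) with EGFP and at 0.481 (0.448 to 0.517) and 0.377 (0.344 to 0.413) without.

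In the liver lobule, hepatocytes near the central vein and near the portal tract use different enzymes, and the members differed between barcodes sorted by such markers. Pericentral markers had 2617 and 3245 UMIs over all hepatocyte barcodes and periportal ones 13761 and 14623, so a call can rest on few UMIs. Barcodes with more pericentral than periportal marker UMIs numbered 314 for shBicd2 and 342 for scramble, and those with more periportal ones 1822 and 1687. Gbp4 was at 516 CPM in pericentral and 157 CPM in periportal barcodes of the library labelled shBicd2, 3.29 times (2.83 to 3.82), and at 344 CPM and 178 CPM in the library labelled scramble, 1.93 times (1.64 to 2.27). Gbp5 was at 2.81 (2.29 to 3.43) and 1.47 (1.21 to 1.77) times, Gbp6 at 2.03 and 2.35 times, and Gbp7 at 1.04 (0.898 to 1.20) and 1.18 (1.07 to 1.30) times. Members at least 1.5-fold higher in pericentral barcodes numbered 4 and 5 of 10, and 8.22% and 9.72% of all genes were. Between the libraries, Gbp4 had a ratio of 1.498 (1.24 to 1.81) in pericentral and 0.880 (0.781 to 0.992) in periportal barcodes. Gbp5 had 1.12 (0.881 to 1.42) and 0.583 (0.507 to 0.67). Gbp6 and Gbp7 were lower in both zones, at 0.488 and 0.475 in pericentral and 0.565 and 0.537 in periportal barcodes. Pericentral barcodes of the library labelled shBicd2 carried more neutrophil marker UMIs than periportal ones, 350 against 241 CPM, and in the library labelled scramble 45.8 against 52.1 CPM. Erythroid markers were at 635 against 327 CPM for shBicd2 and 210.4 against 283 CPM for scramble, and the median mitochondrial share was 0.548% against 0.327% and 0.270% against 0.173%. The part of these in the result was not tested.

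The members were found together unevenly. After thinning to 1000 UMIs, a hepatocyte barcode held UMIs of a mean of 2.38 members in the library labelled shBicd2 (1740 barcodes) and 2.67 in the library labelled scramble (1675 barcodes), with a median of 2 in both. No member was found in 4.37% (3.46% to 5.44%) and 3.82% (2.95% to 4.85%), and exactly 1 in 28.6% (26.4% to 30.7%) and 20.1% (18.2% to 22.1%). A Gbp3 UMI was found in 18.8% of barcodes with Gbp4 and 4.45% of those without it in the library labelled shBicd2, and in 11.7% and 5.72% in the library labelled scramble. A Gbp6 UMI was found in 30.8% of barcodes with Gbp7 and 15.2% of those without it in the library labelled shBicd2, and in 44.6% and 24.9% in the library labelled scramble. Irgm2 was found in 8.92% of barcodes with Gbp4 and 9.63% of those without in the library labelled shBicd2, and in 13.1% and 10.4% in the library labelled scramble. Over the 9 other members, the share with Irgm2 among barcodes with the member was 0.765 to 1.42 times that among those without it for shBicd2, and 1.003 to 1.40 times for scramble. Pairs of genes outside the list were not counted in this way, so these shares have no background and do not set the members apart from other genes.

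**Figure D3:**
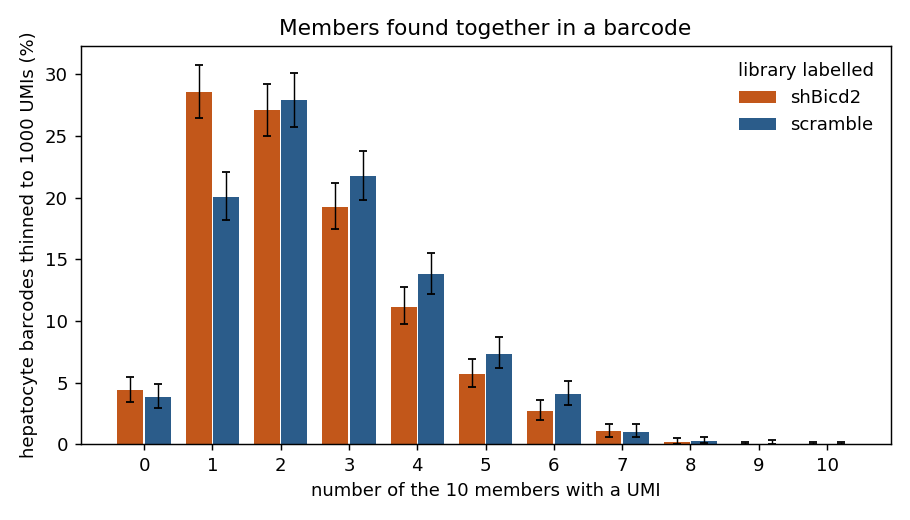
Percent of hepatocyte barcodes, thinned to 1000 UMIs, against the number of the 10 members with a UMI, for the libraries labelled shBicd2 (left bars) and scramble, with Clopper-Pearson 95% intervals. Barcodes with exactly 1 member make up 28.6% in shBicd2 and 20.1% in scramble, and those with 3 members 19.3% and 21.7%.

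Barcodes with under 1% hepatocyte marker UMIs and no gate gene held more GTPase RNA than hepatocyte barcodes, 8862 CPM in the library labelled shBicd2 and 13822 CPM in the library labelled scramble over the 10 members. Gbp4 stood 3.08 (2.77 to 3.42) and 4.21 (3.77 to 4.70) times above its hepatocyte level, Gbp6 2.77 and 2.58 times, Irgm1 2.01 and 2.47 times, and Irgm2 0.839 and 1.17 times. Between the libraries, the ratio of Gbp7 here was 0.420 (0.377 to 0.468) and that of Iigp1 0.641 (0.613 to 0.669). Gbp2 was at 237 CPM and 337 CPM, a ratio of 0.703 (0.573 to 0.862) that lies on the other side of 1 from its hepatocyte ratio. Irgm1 was at 859 CPM and 827 CPM, a ratio of 1.04 (0.924 to 1.17). The cell type of these barcodes is not set by the markers, and erythroid markers summed to 1910 and 469 CPM in them. No share or median over all genes was taken for this class, so how far other genes differed likewise is not known here.

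In barcodes with a Ptprc UMI, Gbp2, Gbp4 and Gbp5 were 1.80 to 2.55 times as high as in hepatocyte barcodes, while the interval of Iigp1 included 1. Gbp4 was at 541 CPM (438 to 660) in the library labelled shBicd2 and 486 CPM (404 to 579) in the library labelled scramble, which is 2.43 (1.95 to 2.99) and 2.28 (1.87 to 2.76) times the hepatocyte level. Gbp5 was at 2.24 (1.64 to 2.98) and 2.55 (2.09 to 3.08) times, Gbp2 at 1.80 (1.35 to 2.37) and 2.10 (1.61 to 2.71) times, and Iigp1 at 0.978 (0.906 to 1.05) and 1.02 (0.959 to 1.08) times. Of the 10 members, 6 and 3 were at least 1.5-fold higher than in hepatocyte barcodes, and 16% and 16.9% of all genes were. Hepatocyte markers lay below 1 by the same measure, as given above. The median log2 level of the 10 members over hepatocyte barcodes was 0.74 and 0.33. Subtracting hepatocyte RNA at the class's hepatocyte marker level gave -0.11 and -0.96, with the UMIs left still divided by the class's full total. A member at its hepatocyte level in the RNA left would thus have a negative value, and these values give no level in that RNA.

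Between the libraries, Gbp5 and Irgm2 of the Ptprc barcodes were lower by 1.5-fold or more, 2 of 10 members, while 22.1% of all genes were lower and 16% higher by that fold. None of the members was higher by it. Gbp5 was at 284 CPM (212 to 374) in the library labelled shBicd2 and 482 CPM (401 to 575) in the library labelled scramble, a ratio of 0.590 (0.417 to 0.824). Irgm2 rested on 17 and 37 UMIs, with an interval of 0.345 to 1.19. Gbp7 had a ratio of 0.718 (0.566 to 0.906) and Gbp6 of 0.874 (0.683 to 1.11). Gbp6 differed with how the barcodes were chosen: its ratio was 0.605 (0.409 to 0.880) in those with a myeloid or neutrophil marker and no lymphocyte one (51 and 48) and 1.66 (1.13 to 2.42) in those with none of these markers (40 and 73), a difference that was not tested. It was 0.544 (0.390 to 0.749) in those with a second leukocyte marker (81 and 94). With at least 2 Ptprc UMIs (35 and 58 barcodes) the ratio was 0.526 (0.288 to 0.913) for Gbp6, 0.365 (0.179 to 0.685) for Gbp5 and 0.396 (0.310 to 0.50) for Iigp1. The make-up of these barcodes differed: neutrophil markers (5 of 5 found in both libraries) summed to 2129 and 153 CPM, and erythroid markers to 8015 and 204 CPM. Of the 1438 erythroid UMIs in the library labelled shBicd2, 1360 came from 11 barcodes with a B, T or NK cell marker and no myeloid or neutrophil one. In Ptprc barcodes with no UMI of either list (51 and 106), Gbp5 had a ratio of 0.697 (0.426 to 1.10) and Iigp1 of 0.636 (0.545 to 0.740), against 0.874 (0.795 to 0.959) for Iigp1 in all Ptprc barcodes.

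**Figure D4:**
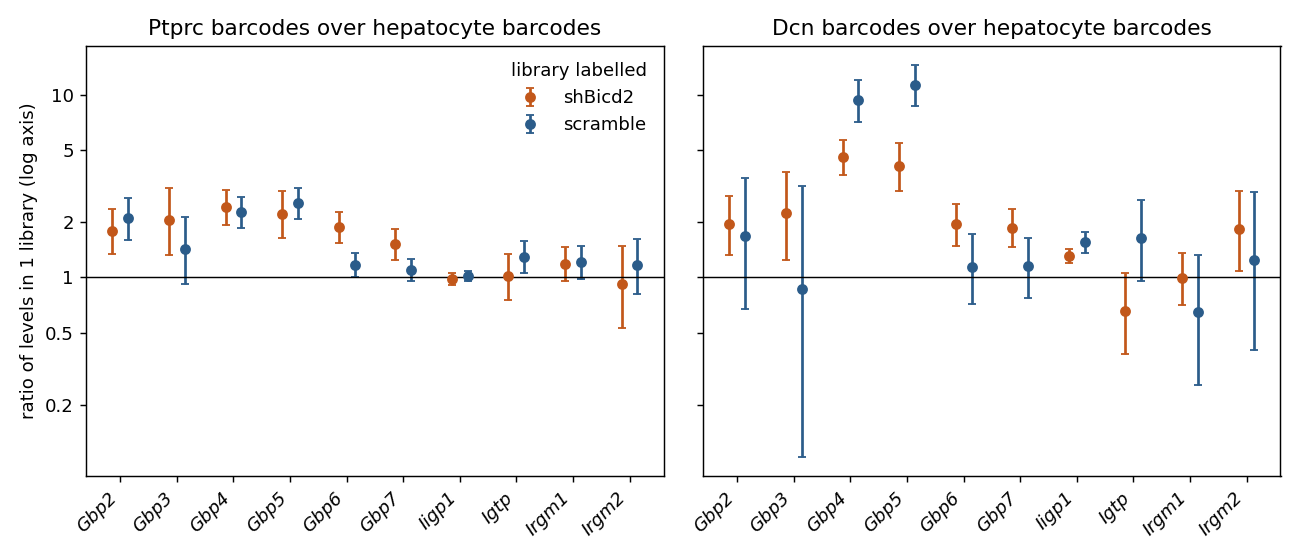
Level of each member in Ptprc barcodes (left) and Dcn barcodes (right) over its level in hepatocyte barcodes of the same library (log axis), for the libraries labelled shBicd2 (left of each pair) and scramble, with exact 95% intervals for counting error. Gbp4 and Gbp5 lie highest, at 4.56 and 4.08 in shBicd2 and 9.29 and 11.3 in scramble for Dcn barcodes.

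In barcodes with a Dcn UMI, Gbp4 and Gbp5 were the 2 members farthest above hepatocyte barcodes. In the library labelled shBicd2, Gbp4 reached 1016 CPM (823 to 1241) from 96 UMIs, and in that labelled scramble 1979 CPM (1524 to 2527) from 64 UMIs. These are 4.56 (3.66 to 5.63) and 9.29 (7.09 to 12.0) times the hepatocyte level. Gbp5 reached 519 CPM from 49 UMIs and 2134 CPM from 69 UMIs, which are 4.08 (2.98 to 5.47) and 11.3 (8.68 to 14.4) times. A Gbp5 UMI was found in 44.1% (31.2% to 57.6%) and 63.6% (45.1% to 79.6%) of Dcn barcodes, though these are shallower, with medians of 1059 and 751 UMIs. Iigp1 was at 1.32 and 1.56 times, and Irgm1 at 0.992 and 0.646 times. At least 1.5-fold higher than in hepatocyte barcodes were 7 and 5 of 10 members, and 21.2% and 31.8% of all genes.

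Between the libraries, 5 members had at least 50 UMIs in Dcn barcodes, 2 of which, Gbp4 and Gbp5, were lower by 1.5-fold or more, as were 23.7% of all genes. None was higher by it, and 40.9% of all genes were. The ratio was 0.513 (0.370 to 0.716) for Gbp4 and 0.243 (0.165 to 0.356) for Gbp5. The Dcn barcodes differed in what else they held: hepatocyte marker UMIs stood at 0.928 times the hepatocyte share in the library labelled shBicd2 and 0.544 times in the library labelled scramble. The 10 stellate and fibroblast markers summed to 1641 and 2567 CPM, with 8 of 10 found in each. At 0 were Col1a1 and Col1a2 in the library labelled shBicd2 and Col1a1 and Des in the library labelled scramble. In the barcodes under each library's median of hepatocyte markers (29 and 16), Gbp5 had a ratio of 0.204 (0.128 to 0.322) and Gbp4 of 0.612 (0.412 to 0.921). In those with a second marker of the cell type (19 and 18), the ratios were 0.163 (0.0845 to 0.297) and 0.430 (0.257 to 0.715).

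**Figure D5:**
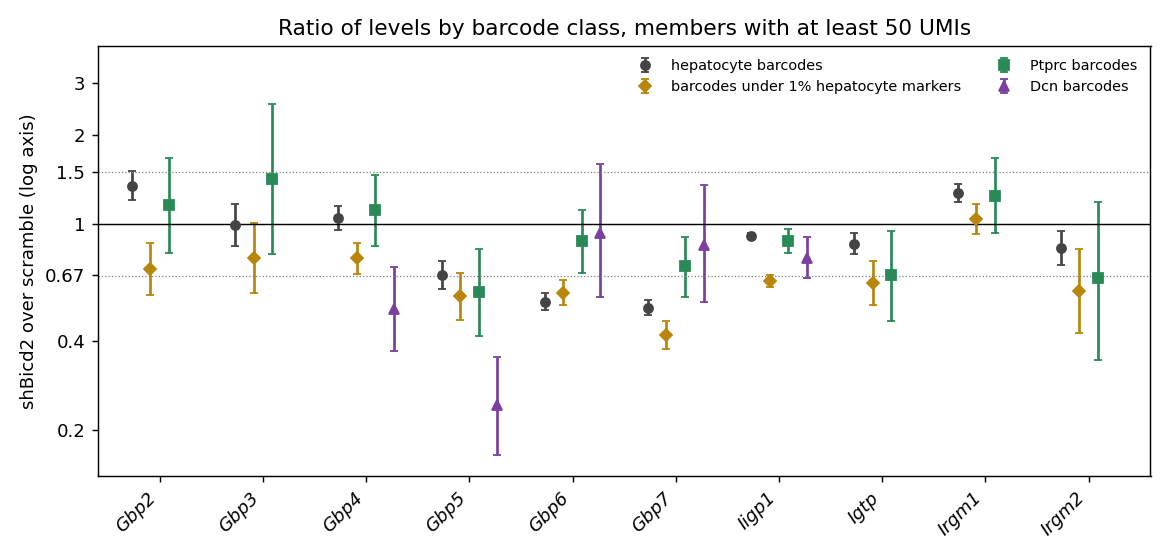
Ratio of each member's level, shBicd2 over scramble (log axis), in hepatocyte barcodes, in barcodes with under 1% hepatocyte marker UMIs, and in Ptprc and Dcn barcodes, for members with at least 50 UMIs in the class. Bars are exact 95% intervals for counting error, the solid line marks 1 and the dotted lines 1.5-fold. Gbp5 in Dcn barcodes is lowest at 0.243, and Gbp7 lies between 0.420 and 0.850.

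Endothelial barcodes were too few under the Ptprb gate, where Gbp4 had 12 UMIs in 3 barcodes of the library labelled shBicd2 and 9 UMIs in 2 barcodes of the library labelled scramble. With at least 2 UMIs over 10 endothelial markers in place of the gate, a choice made after that count was seen, 41 and 20 barcodes were found. Gbp4 led there too, at 735 CPM (566 to 938) and 1926 CPM (1415 to 2561), which are 3.30 (2.52 to 4.25) and 9.04 (6.59 to 12.1) times the hepatocyte level. Gbp6 was at 0.565 (0.322 to 0.920) and 0.893 (0.475 to 1.53) times. Hepatocyte markers stood at 0.766 and 0.932 times their hepatocyte share, so these barcodes hold much RNA that is not endothelial. Hepatocyte barcodes were not left out of them: their median hepatocyte marker share was 1.29% and 1.55%, above the 1% minimum of that class. Barcodes are thus shared by both sides of the ratios to the hepatocyte level, which the intervals do not allow for.

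Over the hepatocyte, Ptprc, Ptprb and Dcn barcodes of both libraries, the gene whose level followed the mean of the members most closely was Il6st, the signalling chain of the interleukin-6 receptor, with a Pearson r of 0.915 over 8 points, a description with no test. Without the Ptprb barcodes it was B230307C23Rik, at 0.988 over 6 points, followed by Myd88, an adaptor of Toll-like receptors, at 0.986 and the interferon-inducible Ifi203 at 0.986. In each setting the genes named were the highest of 7577 compared. B230307C23Rik was at 7.38 and 16.5 CPM in hepatocyte barcodes of the libraries labelled shBicd2 and scramble, near the 10 CPM added before logs. The Ptprb points rest on 3 and 2 barcodes. All points share libraries and free RNA.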

How the data were processed

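The deposited matrices hold raw UMI counts per gene and barcode, which the authors made with 10x Genomics 3-prime chemistry v3.1. The submitters' processing notes name Cell Ranger 6.0.1, Seurat 4.0.3 and mm10, while the file headers name Cell Ranger 6.1.2. The files hold barcodes with at least 500 UMIs. Whether whole cells or nuclei were loaded was not settled here. Kept barcodes had 200 or more genes and no more than 25% of UMIs from mitochondrial genes, and the top Scrublet scores (scanpy 1.11.5, 0.8% per 1000 barcodes) were removed, 74 in shBicd2 and 63 in scramble. Totals as deposited were 5624055 and 5086306 UMIs. Counts were summed per class and library and scaled to CPM. Levels have exact Poisson, shares Clopper-Pearson and ratios exact conditional binomial 95% intervals (scipy 1.17.1), checked on simulated data. They cover counting error only. Genes with at least 50 UMIs over both sides of a comparison were counted at a fold of 1.5, and log2 medians used a pseudocount of 0.5 counts. All 10 members are described, and from each further list the genes with the most UMIs could be named. The members, lists and alternatives were chosen with earlier results of these data known. The splits by Irf1 and Ripk2, the endothelial list and 5 further alternatives were added after seeing the data. Gene positions are from GENCODE M21, and promoters from RefSeq (GRCm38.p6), which gave no window for Gbp4, Gbp6 and Iigp1. Gbp11 and Gm12250 were not analysed here, and 1 gene of the interferon gamma signalling list is not reported here by name. edgeR 4.0.16 gave TMM factors only.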

Additional observations from a re-analysis of the deposited data

Results flagged for a closer look

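Gbp2 stood on opposite sides of 1 in separate classes of barcodes: its ratio of shBicd2 over scramble was 1.347 in hepatocyte barcodes and 0.703 in barcodes with under 1% hepatocyte marker UMIs. Gbp4 did so between zones called by marker UMIs, with a ratio of 1.498 in pericentral and 0.880 in periportal hepatocyte barcodes. Both differences come from 1 library per group and were not tested.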

How the results depend on the processing

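No paired analysis was possible because each group has 1 library, and no library could be left out. Over 433 single-gene values under alternatives, 260 stayed within the counting interval, 144 moved outside it on the same side of 1, 19 moved outside it and crossed 1 from an interval that included 1, and 10 crossed 1 from an interval that did not. These 433 values include a fold of 2 and a rule that the interval lie past 1.5-fold. Both settings change only how members are counted, so each ratio there repeats the main value and could not move. Gbp6 and Gbp7 were below 1 in all alternatives that gave a ratio (17 and 18, these settings included). Their ratios ran at 0.377 to 0.579 and 0.456 to 0.568. The median log2 ratio of the members in hepatocyte barcodes (-0.18) was -0.37 with TMM factors, -0.35 with median-of-ratios factors, -0.072 in barcodes with no marker UMI of another cell type (846 in shBicd2, 1231 in scramble) and -0.046 in those with no Ifit1, Ifit2, Ifit3 or Rsad2 UMI. The summed ratio (0.858) was 0.751 with TMM, 0.763 with median-of-ratios, 0.831 without Malat1, Neat1 and mitochondrial genes, 0.897 with no other marker, 0.840 with at least 5% hepatocyte marker UMIs, 0.819 with no such minimum, 0.820 with no EGFP UMI, 0.916 with no Ifit or Rsad2 UMI, 0.890 after thinning to 1000 UMIs, 0.772 without Iigp1 and 1.21 after subtracting free RNA. With at least 5% marker UMIs (179 and 63 barcodes) 1 member was higher by 1.5-fold and 4 were lower, and Gbp3 had no value there; with no mitochondrial UMI 4 were lower; after thinning 1 was higher; at a fold of 2, 0 were lower. With no minimum of UMIs, 34.5% of all genes were higher and 16.7% lower. Irgm1 crossed 1 to 0.945 with at least 5% marker UMIs and to 0.997 with no EGFP UMI. Gbp4 (1.05) was at 0.916 with TMM and 0.930 with median-of-ratios factors.

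The median log2 level of the members in Ptprc over hepatocyte barcodes was 0.74 in shBicd2 and 0.33 in scramble. In shBicd2 it was 0.25 with at least 2 Ptprc UMIs, 1.19 under the median hepatocyte share, 0.24 with no neutrophil or erythroid UMI and -0.11 after subtracting hepatocyte RNA; in scramble it was 0.91 under the median share and -0.96 after subtraction. For Dcn barcodes of shBicd2 (0.95) it was -0.13 with a second marker, 1.43 under the median share and 0.00618 after subtraction. The values after subtraction divide the UMIs left by the class's full total, so they give no level in the RNA left. With at least 2 Ptprc UMIs, Gbp3 in shBicd2 was at 0.653 and Igtp in scramble at 0.931 times the hepatocyte level, and the Igtp ratio between the libraries was 1.08. With a second marker, Gbp3, Gbp6 and Gbp7 in Dcn barcodes of shBicd2 were at 0.485, 0.737 and 0.674 times. The cause of these shifts was not tested. The share of hepatocyte barcodes with any member was 85.7% in shBicd2 and 88.0% in scramble at 500 UMIs, and 96.2% in scramble at 1000 UMIs. Subtraction of free RNA left UMIs of 5 members in hepatocyte barcodes of both libraries, so no median was given. Their ratios, over the UMIs left alone, were 0.542 for Gbp7, 1.25 for Iigp1, 1.35 for Igtp, 2.47 for Irgm1 and 0.989 for Irgm2.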
